A study of Mus musculus with 4 samples.

Results

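The miR-148 and miR-152 family comprises the microRNAs (miRNAs) that share the seed of miR-148a-3p, and its members, taken by name, are mmu-miR-148a-3p, mmu-miR-148b-3p and mmu-miR-152-3p (mmu- is omitted from here on). All 3 were among the 603 listed miRNAs. Small RNA was sequenced from exosomes, the vesicles that cells release, isolated by ultracentrifugation from the medium of wild-type BV2 cells, an immortalized mouse microglial line. There were 2 control libraries, from cells kept at 37 °C for 2 h, and 2 heatstroke (HS) libraries, from cells heated at 42 °C for 2 h and rewarmed at 37 °C for 12 h. The libraries are called control-1, control-2, HS-1 and HS-2 after their group and replicate number. The time of exosome harvest is given differently in separate passages of the study. No time after the 2 h is given for the control cells. Heat and time in culture therefore cannot be told apart in any difference between the groups. No source used here says whether the 2 libraries of a group came from separate cultures, so the p-values measure only the spread between these libraries, which may be technical. Since each library holds the RNA of many vesicles, fewer vesicles holding a miRNA and less of it per vesicle cannot be told apart.

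The listed miRNAs held between 96516 and 121503 reads in the control libraries, 42091 in HS-1 and 113966 in HS-2. Levels are given as normalized counts, that is, reads over the size factor of the library they came from. HS-1 stood apart from the other libraries, with 228 miRNAs detected against 420 to 444. Its Spearman correlations with the others over the 376 miRNAs tested (genes, not replicates) ranged from 0.60 to 0.68, against 0.79 to 0.81 among the other 3 libraries. The changes of the family members are therefore given with and without it. A miRNA with 0 reads could still hold up to 3 reads, equal to a normalized count of 7.25 in HS-1 and 1.99 to 2.51 in the other libraries. These limits and all intervals on reads cover counting error only.

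A miRNA pairs with messenger RNAs mainly through its seed, bases 2 to 8 from the 5′ end, and lowers their stability or translation. Members of a seed family can therefore address the same messenger RNAs while they are made from separate genes. The miR-148 and miR-152 family is best known for repressing Dnmt1, the maintenance DNA methyltransferase. The 2 coatomer zeta genes, Copz1 and Copz2, encode a subunit of the vesicle coat of the Golgi, and each of them carries a family member.

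The mature sequences of the members are shown to make the shared and the differing bases visible. They come from RefSeq on GRCm38.p6, are written 5′ to 3′, and have the seed in capitals.
miR-148a-3p: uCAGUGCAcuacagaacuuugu
miR-148b-3p: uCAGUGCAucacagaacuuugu
miR-152-3p: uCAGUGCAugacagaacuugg
The first 8 bases were the same in all 3. Counted from 1 at the 5′ end and with the first-named miRNA first, miR-148a-3p and miR-148b-3p differed by C9U and U10C. Over 21 bases, miR-148a-3p and miR-152-3p differed by C9U, U10G and U20G, and miR-148b-3p and miR-152-3p by C10G and U20G. With so few differences a read with sequencing errors could be counted under another member, and how many mismatches the mapping allowed is not given in the sources used here. A RefSeq mature sequence was found for 497 of the 603 listed names. The 3 members were the only ones of these 497 with CAGUGCA at bases 2 to 8, and they were also the only 3 of the 1679 mature names in the RefSeq table.

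The 3 genes lie on different chromosomes of GRCm38. Mir148a is on the minus strand at chr6:51269812-51269910 and overlaps no other gene of GENCODE M21, and the nearest protein-coding gene, Nfe2l3, is 162760 bases away. Mir148b, on the plus strand at chr15:103285125-103285221, lies in Copz1 on the same strand and overlaps no exon. Mir152, on the plus strand at chr11:96850393-96850465, lies in the same way in an intron of Copz2. The mature bases are at chr6:51269829-51269850 for miR-148a-3p, chr15:103285185-103285206 for miR-148b-3p and chr11:96850439-96850459 for miR-152-3p.

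The letters that pair with the seed, TGCACTG, were searched on the transcript strand within each gene's 3′ untranslated region, the longest one annotated. They are shown in capitals for Dnmt1, the best-known target, and for Bcl2, the gene that the study took forward as a target of another miRNA.
Dnmt1: gccccacgTGCACTGatg
Bcl2: gacatctgTGCACTGtgc
Each region held 1 match. That of Dnmt1 was at chr9:20907492-20907498 on the minus strand, from base 23 of a region of 312 bases. That of Bcl2 was at chr1:106538893-106538899 on the minus strand, from base 4365 of 5086. An A, which extends the match opposite the first base of the miRNA, followed in Dnmt1 but not in Bcl2. The letters occurred in 12.7% of the regions of 21020 genes. Among genes with a region between 4/5 and 5/4 of the same length, the share was 3.28% for the length of Dnmt1 and 36.5% for that of Bcl2. A match of letters is a description only, and no target was measured in these libraries.

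MiR-148a-3p was the most abundant member and was lower in both HS libraries than in both control libraries. It had 1096 and 668 reads in control-1 and control-2, and 28 and 426 reads in HS-1 and HS-2. These were normalized counts of 916 and 453 in the control group and of 67.7 and 283 in the HS group. The groups did not overlap, and HS-1 was the lowest library by a wide margin. Means were 684 ± 328 for control and 175 ± 151.99 for HS (SD, n = 2 each), a 3.91-fold difference of the means.

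MiR-148b-3p, which shares 20 of its bases with miR-148a-3p by the substitutions above, differed less. It had 206 and 176 reads in control-1 and control-2, and 27 and 179 in HS-1 and HS-2. The normalized counts were 172 and 119.3 in the control group and 65.3 and 118.8 in the HS group. Control replicate 2 and HS-2 were almost equal, and HS-1 alone was clearly lower. The means were 146 ± 37.4 and 92.0 ± 37.8 (SD, n = 2 each), a 1.58-fold difference.

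MiR-152-3p was the least abundant member. It had 74 and 22 reads in control-1 and control-2, 0 in HS-1 and 31 in HS-2. The normalized counts were 61.9 and 14.9 in the control group and 0 and 20.6 in the HS group. The groups overlapped, since HS-2 was above control-2. The means were 38.4 ± 33.2 and 10.3 ± 14.5 (SD, n = 2 each), a 3.73-fold difference, or 2.76-fold with HS-1 set to its limit of 3 reads. At the level of HS-2, HS-1 should have held 8.51 reads given its size factor, so its 0 reads were below that level. Its 0 of 42091 reads allow a share of up to 0.00713%.

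**Figure D1:**
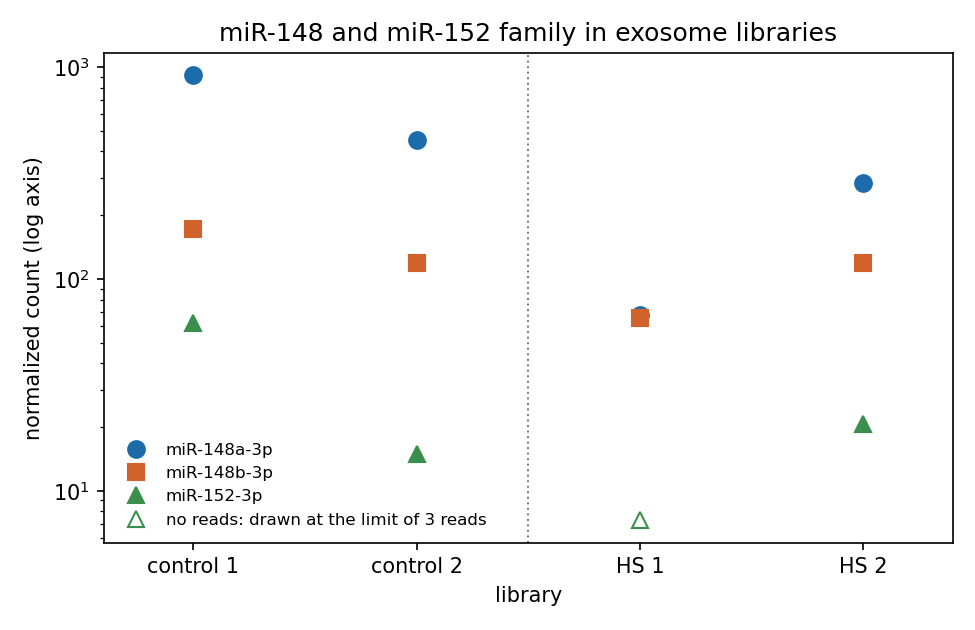
Normalized count (log axis) of the 3 members in each of the 4 libraries, with 1 point per miRNA and library and an open point at the limit of 3 reads where there were 0 reads. MiR-148a-3p lay between 453 and 916 in the control libraries and at 67.7 and 283 in the HS libraries, whereas miR-148b-3p was nearly equal in control-2 and HS-2.

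To ask whether the family differed between HS and control exosomes, limma was fitted to log2(normalized count + 1) of the 376 miRNAs with at least 10 reads over the 4 libraries. All 3 members passed this minimum. The added 1 shrinks the fold change of rarely read miRNAs. The log2 fold change (HS against control) of miR-148a-3p was -2.21 (standard error, SE, 1.05; adjusted p = 0.617, limma). That of miR-148b-3p was -0.70 (SE 0.79, adjusted p = 0.729 by limma), and that of miR-152-3p was -2.77 (SE 1.80, adjusted p = 0.621 by limma). None of the 3 members passed an adjusted p of 0.05. Their unadjusted p in limma was 0.099, 0.423 and 0.194, in the same order. Of all 376 miRNAs, 0 (0.0%) had an adjusted p under 0.05 in limma, edgeR's quasi-likelihood test or DESeq2's Wald test, and 31 had an unadjusted p under 0.05 in limma, 32 in edgeR and 29 in DESeq2. An exact permutation test of 2 libraries against 2 cannot give a p under 0.333.

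The study's criterion of a change over 2-fold with an unadjusted p under 0.05 was met by 0 of the 3 members in limma, against 8.24% of all tested miRNAs. For miR-148a-3p the side of this criterion depended on the test. Its unadjusted p was 0.0990 in limma, 0.0226 in edgeR's quasi-likelihood test (log2 fold change -1.79, adjusted p = 0.472), 0.0293 in DESeq2's Wald test (-1.95, adjusted p = 0.554) and 0.0365 in limma with a mean-variance trend (adjusted p = 0.569). The criterion was met by 8.51%, 7.71% and 5.59% of all tested miRNAs in the last 3 tests. MiR-148b-3p and miR-152-3p met it in none of the 14 alternative settings tried. Both HS libraries lay below both control libraries for 2 of the 3 members, miR-148a-3p and miR-148b-3p, and for 32.4% of all tested miRNAs.

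The size of the difference in miR-148a-3p rested on which libraries were used. The 3.91-fold difference of the means was 2.42-fold without HS-1, 10.1-fold without HS-2, 2.58-fold without control-1 and 5.23-fold without control-2. Its log2 fold change was -1.19 without HS-1 (adjusted p = 0.706 by limma, where the lone HS library is assumed to vary like the control libraries). That of miR-148b-3p was -0.27 (adjusted p = 0.862 by limma) and that of miR-152-3p was -0.55 (adjusted p = 0.919 by limma) without the same library. The 3.73-fold difference of miR-152-3p was 1.87-fold without HS-1, at least 5.29-fold without HS-2, 1.45-fold without control-1 and 6.01-fold without control-2. The difference of miR-148b-3p stayed between 1.23-fold and 2.23-fold whichever library was left out.

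Against all tested miRNAs, the changes of the members were spread out. The median log2 fold change of the 376 was -0.65, and that of the 157 with at least 100 reads was -0.25. MiR-148b-3p, at -0.70, was close to the median of all tested miRNAs, and 33.8% of the 157 were at or below it. MiR-148a-3p was further down, with 15.3% of the 157 at or below its value, and miR-152-3p with 10.2%. Without HS-1, the median was -0.17 for the 376 and -0.12 for the 157. The share of the 157 at or below the member was then 40.1% for miR-148b-3p, 9.55% for miR-148a-3p and 25.5% for miR-152-3p.

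**Figure D2:**
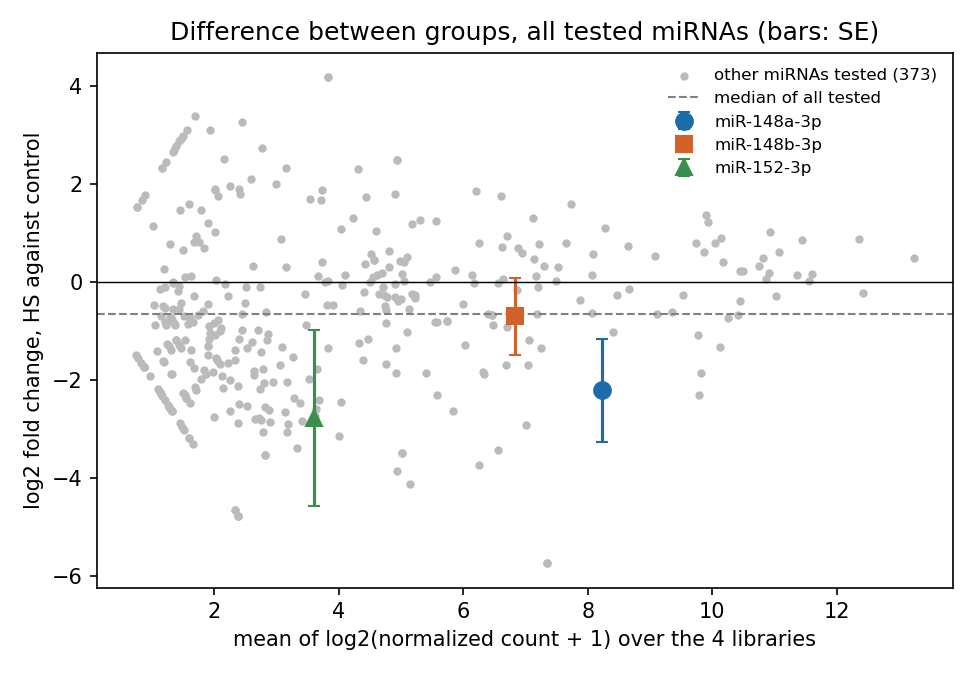
Log2 fold change (HS against control, limma) against the mean of log2(normalized count + 1) for the 376 tested miRNAs, with the 3 members in colour and bars of 1 standard error (SE). MiR-148b-3p sits at -0.70 by the dashed median of -0.65, while miR-148a-3p (-2.21) and miR-152-3p (-2.77) lie lower with wide bars.

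**Figure D3:**
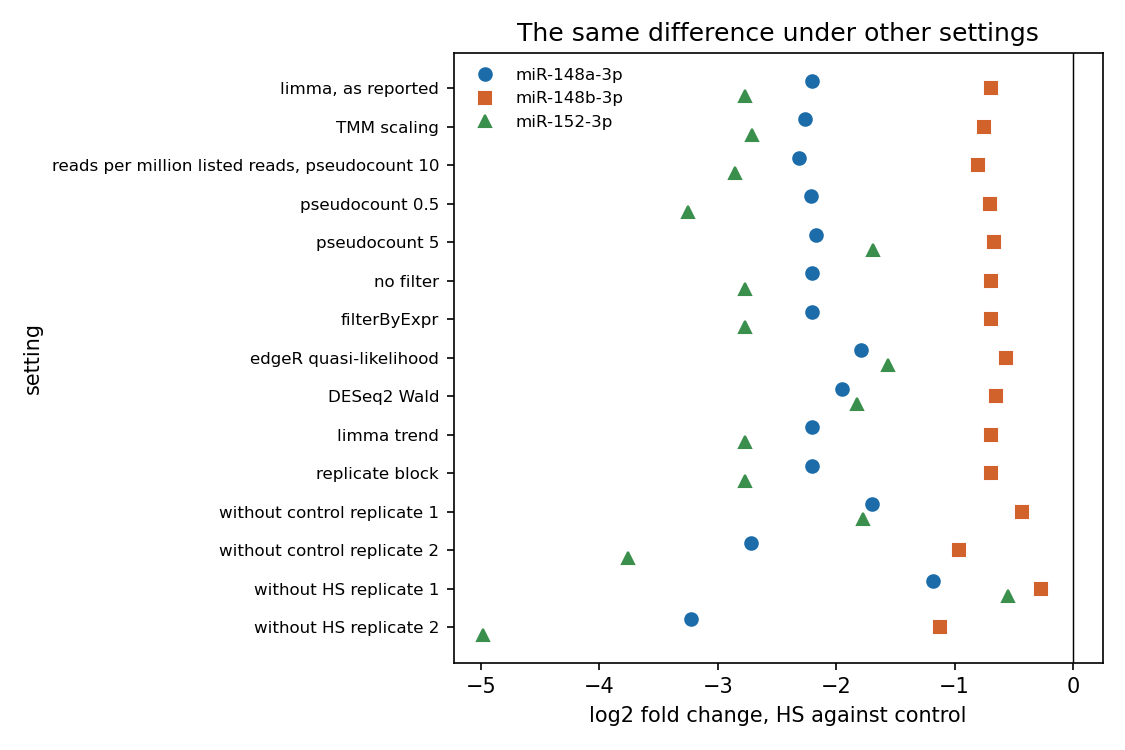
Log2 fold change (HS against control) of the 3 members as reported and under 14 other settings, with 1 point per member and setting. All points lie below 0, from -3.23 to -1.19 for miR-148a-3p, from -1.12 to -0.27 for miR-148b-3p and from -4.98 to -0.55 for miR-152-3p.

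The balance between the members does not depend on how the libraries were scaled to each other. MiR-148a-3p was 84.2% of the reads of miR-148a-3p and miR-148b-3p together in control-1 (95% Wilson interval 82.1% to 86.1%) and 79.1% in control-2 (76.3% to 81.8%). It was 50.9% in HS-1 (38.1% to 63.6%, from 55 reads) and 70.4% in HS-2 (66.7% to 73.9%, from 605 reads). The share was thus lower in both HS libraries than in both control libraries, and no interval of an HS library reached one of a control library. As ratios, there were 5.32 and 3.795 reads of miR-148a-3p for each read of miR-148b-3p in the control libraries, and 1.04 and 2.38 in HS-1 and HS-2. In HS-1, with 28 and 27 reads, the levels of the 2 miRNAs could not be told apart. The control libraries also differed from each other by more than counting error, and the shift is given as a description, with no test. Of the other 156 miRNAs with at least 100 reads, 15.4% had a ratio to miR-148b-3p that was lower in both HS libraries than in both control libraries, miR-148a-3p included in the count.

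MiR-152-3p contributed 5.38% and 2.54% of the family's reads in control-1 and control-2, 0% in HS-1 and 4.87% in HS-2. There were 8 reads of miR-148b-3p for each read of miR-152-3p in control-2 and 5.77 in HS-2. The 2.78 of control-1 lay below both, so the proportion of miR-152-3p to miR-148b-3p did not separate the groups. The order of the levels, miR-148a-3p over miR-148b-3p over miR-152-3p, was the same in control-1 and control-2 and HS-2. These are counts of miRNAs of 21 or 22 bases, with no correction for length or for ligation preference.

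**Figure D4:**
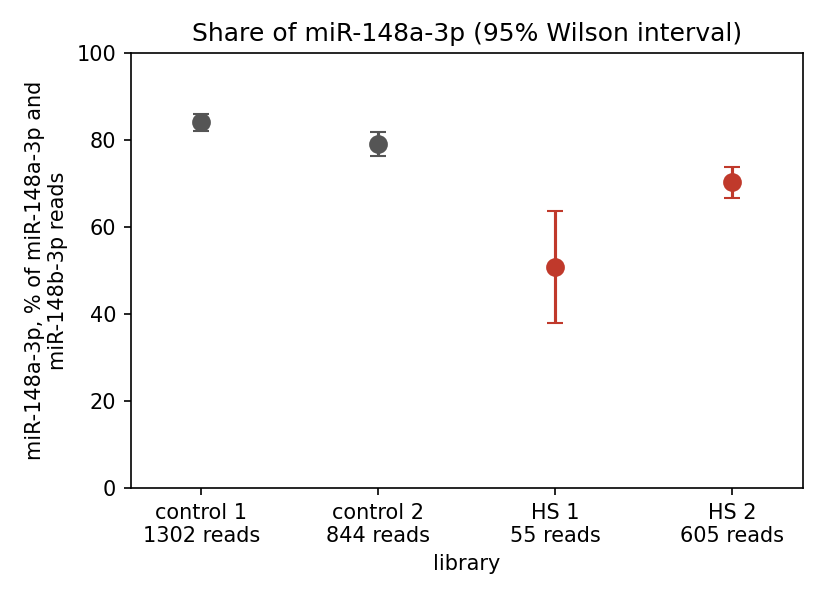
MiR-148a-3p reads as a percentage of the reads of miR-148a-3p and miR-148b-3p together, with 1 point per library and its 95% Wilson interval. The control libraries sit at 84.2% and 79.1% and the HS libraries at 50.9% and 70.4%.

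Summed over the 3 members, the family had 1376 and 866 reads in control-1 and control-2, and 55 and 636 in HS-1 and HS-2. This was 1.43% and 0.713% of the listed reads of the control libraries, 0.131% of those of HS-1 and 0.558% of those of HS-2. The mean of the summed normalized counts was 3.13-fold higher in the control group, 2.06-fold without HS-1, 6.53-fold without HS-2, 2.12-fold without control-1 and 4.14-fold without control-2. This sum is dominated by miR-148a-3p.

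The other arm of the miR-148a and miR-148b precursors was almost unread. MiR-148a-5p had 2 reads in control-1, 1 in control-2 and 0 in HS-1 and HS-2. MiR-148b-5p had 3 reads in HS-2 and 0 in the other libraries. Both were under the minimum for the test, and no fold can be given at these counts. MiR-152-5p was not among the listed names, so the arms of that precursor could not be compared. The reads of the miR-148a and miR-148b precursors thus came almost wholly from the 3p arm in control-1, control-2 and HS-2. In HS-1, with 28 and 27 reads of the 3p arms, 0 reads of the other arm bound the split only loosely.

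MiR-130a-3p and miR-130b-3p carry the same 7 letters, shifted by 1 base to bases 1 to 7, so that their own seed is AGUGCAA. They were found by the sequence search after the data were seen, and are shown with the shared letters in capitals.
miR-130a-3p: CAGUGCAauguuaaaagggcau
miR-130b-3p: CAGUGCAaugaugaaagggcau
MiR-130a-3p had 2 reads in control-1, 4 in control-2 and 0 in HS-1 and HS-2. MiR-130b-3p had 16 and 5 reads in control-1 and control-2 and 6 and 8 in HS-1 and HS-2. Its log2 fold change of 0.32 (SE 1.02, adjusted p = 0.897 by limma) changed sign without control-2 and without HS-1. At these counts a difference was not detectable.

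For each member, the miRNAs with the most similar pattern over the 4 libraries were found among 156 others with at least 100 reads. The measure was the Euclidean distance between log2(normalized count + 1), centred on the mean of each miRNA, so level was not compared. HS-1 was the lowest library for the 3 members and for each of the 9 miRNAs named here, so this likeness rests largely on a library that stands apart. The nearest to miR-148a-3p was miR-26a-5p (distance 0.24 on the log2 scale), with 2824 and 1360 normalized counts in the control libraries and 174 and 886 in HS-1 and HS-2. It was followed by miR-125a-5p (0.66) and miR-30e-5p (0.69). The nearest to miR-148b-3p were miR-155-5p (0.25), miR-484 (0.28) and miR-24-2-5p (0.41). MiR-155-5p had 147 and 127 normalized counts in the control libraries and 62.9 and 123 in HS-1 and HS-2, which is nearly the level of miR-148b-3p in each. The nearest to miR-152-3p were miR-143-3p (0.66), miR-199a-5p (1.14) and miR-93-5p (1.17). Members of the family were not each other's nearest. MiR-148b-3p ranked 29 of 156 by distance from miR-148a-3p and miR-152-3p ranked 35. From miR-152-3p, miR-148a-3p ranked 13 and miR-148b-3p ranked 44. From miR-148b-3p, miR-148a-3p ranked 84 and miR-152-3p ranked 136.

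**Figure D5:**
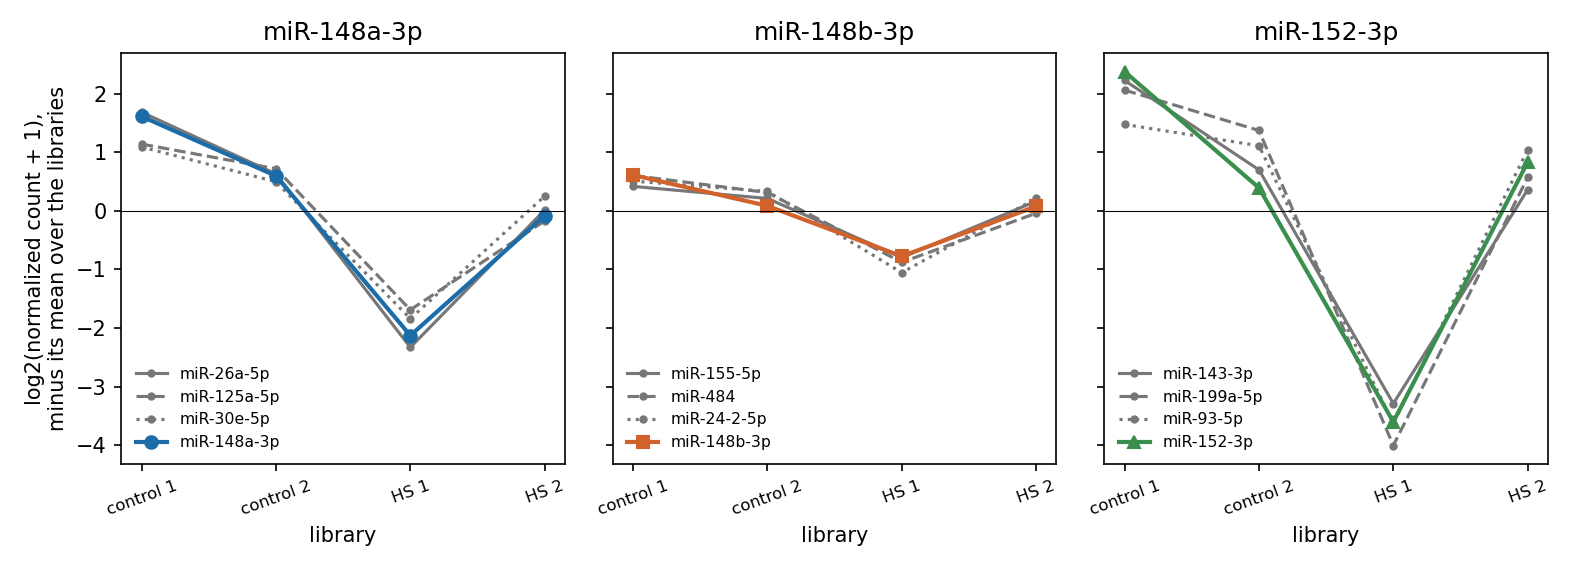
Log2(normalized count + 1) minus its mean over the 4 libraries for each member (colour) and the 3 miRNAs nearest to it (grey), with lines that join the values of 1 miRNA. Among the 3 members, the dip at HS-1 is deepest for miR-152-3p, where 0 reads were counted, and shallowest for miR-148b-3p.

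Neighbours in abundance did not share these differences throughout. In the mean of the control libraries miR-148a-3p ranked 34, between miR-5099 and miR-129-5p. MiR-5099 had 418 and 972 normalized counts in the control libraries and 3122 and 721 in HS-1 and HS-2. MiR-129-5p had 538 and 771 in the control libraries and 1664 and 751 in HS-1 and HS-2. Both were thus highest in HS-1, where miR-148a-3p was lowest, and their groups overlapped. MiR-148b-3p ranked 65, between miR-200c-3p (log2 fold change -4.12, SE 2.23, 0 reads in HS-1) and miR-484 (-0.92, SE 0.77). MiR-152-3p ranked 114, between miR-18a-3p (-0.26, SE 0.72) and miR-2137 (1.86, SE 0.77, both HS libraries above both control libraries). For miR-200c-3p, miR-484 and miR-18a-3p, both HS libraries lay below both control libraries, as for 32.4% of all tested miRNAs. The adjusted p of all 6 neighbours lay above 0.05 in limma.

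Among miRNAs known for repressing DNA or histone methyltransferases, as the family does Dnmt1, a list of 7 was examined. MiR-29a-3p, miR-29b-3p and miR-29c-3p repress the de novo enzymes Dnmt3a and Dnmt3b, and miR-101a-3p, miR-101b-3p, miR-26a-5p and miR-26b-5p repress Ezh2, a histone methyltransferase. Of these, 6 were tested, 0 passed an adjusted p of 0.05 and 0 met the study's criterion. The 6 log2 fold changes were all below 0, as were 246 of all 376. Those of the list ran from -2.31 to -0.81 with a median of -1.47, against -0.65 for all tested miRNAs. Without HS-1, miR-29b-3p was at 0.38 and the others of the list lay between -1.41 and -0.10. The median of all tested miRNAs was then -0.17. Both HS libraries lay below both control libraries in 5 of the 6, against the 32.4% above. MiR-29a-3p had 322 and 104 normalized counts in the control libraries and 45.9 and 68.3 in HS-1 and HS-2 (log2 fold change -1.69, SE 0.92, adjusted p = 0.617 by limma). MiR-26b-5p had 236 and 233 in the control libraries and 33.9 and 153 in HS-1 and HS-2 (-1.68, SE 1.02, adjusted p = 0.621 by limma). MiR-101a-3p had 76.1 and 48.1 in the control libraries and 38.7 and 29.9 in HS-1 and HS-2, so here HS-1 was not the lowest library. MiR-101b-3p was 4.84 in HS-1 and between 27.9 and 30.5 in the other libraries. MiR-29b-3p, read 40 times in control-1, 10 times in HS-2 and not at all in the others, had overlapping groups, and miR-29c-3p had 1 read in all. MiR-26a-5p is also the nearest miRNA to miR-148a-3p above.

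The sum of a stromal or epithelial marker list had the same order of libraries as the sum of the family. Not every member of that list had this order, miR-205-5p and miR-214-3p being examples. The 9 miRNAs of the list, all of them tested, summed to 3222 and 1408 normalized counts in control-1 and control-2, and to 21.8 and 912 in HS-1 and HS-2. They took 3.99%, 1.71%, 0.0214% and 1.21% of the listed reads, the same order of libraries as the share of the family. Within the family only miR-148a-3p had this order, since the shares of miR-148b-3p and miR-152-3p were higher in HS-2 than in control-2. The order was not particular to this list. The methyltransferase list summed to 3521 and 1776 normalized counts in control-1 and control-2, and to 297 and 1172 in HS-1 and HS-2. In HS-1, 5 of the 9 had 0 reads, among them miR-199a-3p, and 2 of the 3 miRNAs nearest to miR-152-3p, miR-143-3p and miR-199a-5p, are on this list. All 9 had log2 fold changes below 0, as did 246 of all 376 tested miRNAs. The median of the 9 was -2.93, against -0.65 for all tested miRNAs, and 0 of the 9 passed the test. The part of such RNA in the differences of the family was not tested. The 6 myeloid miRNAs summed to 5455 and 2439 in the control libraries and to 1714 and 2872 in HS-1 and HS-2. Most of this sum was miR-21a-5p and miR-146a-5p, which differed in pattern. MiR-21a-5p had 3900 and 762 normalized counts in the control libraries and 276 and 816 in HS-1 and HS-2. MiR-146a-5p had 1218 and 1356 in the control libraries and 1289 and 1766 in HS-1 and HS-2. Of the 6 myeloid miRNAs, which bear on the label of microglia, miR-142a-5p, miR-155-5p, miR-146a-5p and miR-21a-5p were read in every library. However, miR-142a-3p had 0 reads in HS-1 and miR-223-3p had 0 in HS-2. Of the 6, 5 had log2 fold changes below 0, with a median of -0.64, near the -0.65 of all tested miRNAs. The 4 red cell or liver miRNAs, which serum can carry, summed to 76.9 and 192 in the control libraries and to 331 and 186 in HS-1 and HS-2. The 3 tested had log2 fold changes above 0, as did 130 of all 376 miRNAs. That of miR-451a was near 0 (0.0085, SE 0.76), and that of miR-486a-5p was 0.44 (SE 0.88), both with overlapping groups. Only miR-122-5p (1.75, SE 1.10) had both HS libraries above both control libraries. On both of these lists 0 passed the test. At the depth of HS-1, the family rested on 55 reads.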

How the data were processed

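Per the paper, the authors removed adapters, reads under 17 nt and low-quality reads, mapped the rest with bowtie to the reference genome and counted miRNAs. Versions, the genome build and the miRNA annotation are not given in the sources used here. The deposited signal values are headed RPKM. In each library 100% of the non-zero values were whole multiples of the smallest (relative tolerance 1e-05). They were therefore read as counts divided by a size factor, and whole reads were recovered by division. The size factors were 1.20 and 1.48 for control-1 and control-2, and 0.414 and 1.51 for HS-1 and HS-2.

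The groups, 2 libraries each, entered a linear model of log2(normalized count + 1) in limma 3.58.1 (R 4.3.3; lmFit, then eBayes with no trend). Replicate number was not a covariate. MiRNAs with at least 10 reads over the 4 libraries were tested, with Benjamini-Hochberg adjustment over all of them. The fits were checked on simulated counts with log2 changes larger than those of the members when all 4 libraries were fitted. That check cannot show whether differences of the members' size were detectable. Alternatives used edgeR 4.0.16, DESeq2 1.42.0, other scalings, pseudocounts and filters, and each library left out. Wilson intervals came from scipy 1.17.1.

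The miRNAs named are the members, their other arms, the listed miRNAs that share the seed letters, the neighbours of each member in abundance, the 3 nearest in pattern, and the list of methyltransferase-directed miRNAs. Markers were named from 3 further lists. The members and lists were chosen with earlier results of these data known. Sequences came from RefSeq (GRCm38.p6), and genes and untranslated regions from GENCODE M21 (GRCm38), taken as the bases after the stop codon.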

Additional observations from a re-analysis of the deposited data

How the results depend on the processing

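The log2 fold changes of the 3 members stayed below 0 with an adjusted p above 0.05 in all 14 alternatives each, with adjusted p-values from 0.164 to 0.882 for miR-148a-3p, 0.247 to 0.996 for miR-148b-3p and 0.183 to 0.959 for miR-152-3p. Among the other miRNAs named for sequence, abundance, pattern or the methyltransferase list, 275 of 279 values kept their direction. With a library left out, miR-29b-3p ranged from -3.64 to 1.47, above 0 without control-1 (1.47) and without HS-1 (0.38). MiR-130b-3p ranged from -0.54 to 1.17, below 0 without control-2 (-0.54) and without HS-1 (-0.33). The number of miRNAs meeting the study's criterion was 31 (25 lower and 6 higher in the HS group), and 30 (21 lower and 9 higher) with TMM scaling. It was 16 with a pseudocount of 5, 12 with the filterByExpr filter, which tests 228 miRNAs, and from 26 to 113 with a library left out, the highest without HS-2. The cause of these shifts was not tested. The deviations of same-numbered libraries correlated at -0.097 across the tested miRNAs. This rests on a single difference per group, so it cannot show whether same-numbered libraries share a culture or batch. With the replicate number as a block, 19 miRNAs met the criterion, and miR-148a-3p had an adjusted p of 0.681 in limma. No miRNA passed an adjusted p of 0.05 in any of these settings.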
